A study of Mus musculus with 192 samples.

Results

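The 8 genes described here encode enzymes of haem synthesis, namely Alas1, Alas2, Alad, Uros, Urod, Cpox, Ppox and Fech, chosen by gene name from the 54752 genes listed. The enzyme that acts between Alad and Uros was not analysed here. Expression was measured by RNA-seq in 9 tissues of male mice on the C57BL/6J background (C57BL/6 in the labels), labelled as 12 weeks old, in 4 groups. WT mice and Nrf2-KO mice, which lack the transcription factor Nrf2 (gene Nfe2l2), either stayed on the International Space Station and were returned alive (FL_WT, FL_KO) or were kept in the same cages on the ground (GC_WT, GC_KO). The paper puts the flight mice at about 12 weeks at launch, so they were older at dissection. All mice were housed singly, and the Nrf2-KO mice had been selected for absence of a hepatic shunt, so they do not stand for all mice of this line. The samples came from liver (Liv), from spleen (Spl) and thymus (Thy), from the temporal bone (TpB) and the mandible (MdB), from white fat of the epididymis (eWAT) and brown fat between the shoulder blades (iBAT), and from kidney (Kid) and cerebrum (Cbr). Each group held 6 mice, or 3 in MdB and Kid. The FL_KO mouse FL04, which had an intestinal haemorrhage, was left out, which leaves 5 FL_KO mice, 2 of them in MdB. Values come from 184 of 192 samples and 23 of 24 mice. Flight and ground mice were handled and dissected at different places and dates, so flight, return and handling cannot be told apart.

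Haem synthesis starts in mitochondria, where 5-aminolevulinate synthase joins glycine and succinyl-CoA. This first step, which limits the rate, is encoded by separate genes. Alas1 is used in nearly all cells and is best known from liver, where haem represses it and fasting and many drugs induce it. Alas2 is the erythroid form, which supplies haem for haemoglobin, and is driven by the erythroid factors Gata1 and Klf1. The next steps run in the cytosol, where Alad joins aminolevulinate to porphobilinogen and Uros and Urod form and trim the uroporphyrinogen ring. Cpox, Ppox and Fech then complete the ring in mitochondria and insert iron.

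Alas1 lies at chr9:106233455-106248654 on the minus strand and Alas2 at chrX:150547375-150570638 on the plus strand (GRCm38). Of the other members, Ppox is at chr1:171275990-171281186, Alad at chr4:62509169-62519918, Urod at chr4:116989965-116994413, and Uros at chr7:133686243-133710072, all on the minus strand and Cpox at chr16:58670292-58717636 on the plus strand. The sequence before the start sites of Alas1 and Alas2 is shown because these genes differ most in where they are expressed. The lines below give the 250 bases before 1 RefSeq start of each gene (GRCm38.p6, chr9:106247955-106248204 on the minus strand and chrX:150547167-150547416 on the plus strand), and a run of 30 bases (chr9:106247906-106247935, minus strand) from the 250 bases before another Alas1 start, whose window is chr9:106247731-106247980. Capitals mark matches, on either strand, to AGATAA (the GATA motif) and CCACCC (the Klf motif) in the long runs and to GCATGCGC (core of the site of the respiratory factor NRF1, a different protein from Nrf2) in the short run.
Alas1: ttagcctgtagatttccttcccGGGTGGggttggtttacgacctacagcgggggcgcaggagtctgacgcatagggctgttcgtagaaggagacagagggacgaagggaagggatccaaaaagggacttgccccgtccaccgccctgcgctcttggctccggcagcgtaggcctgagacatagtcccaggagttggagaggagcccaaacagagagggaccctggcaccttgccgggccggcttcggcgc
Alas1, 30 bases: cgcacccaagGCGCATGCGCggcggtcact
Alas2: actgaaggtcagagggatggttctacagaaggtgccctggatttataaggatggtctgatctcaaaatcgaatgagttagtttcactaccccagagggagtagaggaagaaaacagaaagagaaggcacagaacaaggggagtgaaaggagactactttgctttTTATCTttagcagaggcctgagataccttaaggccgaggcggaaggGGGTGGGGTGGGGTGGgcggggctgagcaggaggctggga

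The Alas2 window held 1 GATA match, read as TTATCT on the strand shown and starting 86 bases before the start site, and 3 Klf matches in a row at 40, 35 and 30 bases. These RefSeq starts lie inside the gene spans given above. The Klf matches of Alas2 are thus within its span and the GATA match before it, and both Alas1 windows are within the Alas1 span. The Alas1 window held 1 Klf match, 228 bases before the start site, and its 30-base run held 2 overlapping NRF1 core matches, 1 on each strand, which start 195 and 193 bases before that other start site. In 32851 RefSeq promoters of this length, 9.99% held AGATAA, 28.1% CCACCC and 2.26% GCATGCGC. Of the 7 members searched, with Fech left out, GATA was found in 1 and the NRF1 core in 1. TGACNNNGC, the core of the antioxidant response element that Nrf2 binds, was in 10.2% of all promoters and in 0 of the 10 windows of these 7 members, which says nothing of sites elsewhere. A match of letters describes the sequence and is not a binding site.

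Libraries held 13.1 to 16.3 M expected counts, and 8.01 to 10.6 M in Thy, whose RNA was depleted of ribosomal RNA where the others were selected for poly(A). Nfe2l2 itself was lower in Nrf2-KO than in WT mice in all 9 tissues, with log2 fold changes on the ground from -0.25 in Spl to -1.81 in Cbr. Defining markers of each labelled tissue were present. TPM is transcript abundance corrected for length and scaled to the same total in every library. In iBAT, 3 flight libraries carried skeletal muscle RNA. Their summed TPM of 6 muscle genes was 5955 in FL06, 2856 in FL08 and 7425 in FL11, against 61.4 at most in all other iBAT libraries. In TpB this sum ran from 10.5 to 23430 TPM within GC_KO mice, and that of 6 neuron markers from 928 to 4414. Summed hepatocyte markers in TpB ran from 79.2 to 2233 TPM within GC_WT mice. The part of such RNA in the TpB values was not tested. Where genes overlap on opposite strands, reads could be shared: 15.5% of the exonic bases of Alas2 lie in Apex2 or Mir3620, 7.53% of those of Alas1 in an antisense RNA, 17.5% of those of Ppox in B4galt3 and 3.06% of those of Cpox in Gpr15. Apex2 was between 3.64 and 15.6 TPM in every sample of every tissue.

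In GC_WT mice, Alas1 was highest in adipose tissue and liver, and Alas2 in temporal bone, spleen and liver. The mean Alas1 level was 432 TPM ± 74.6 (SD, n = 6) in eWAT, 421 ± 198 in Liv, 202 ± 46.0 in iBAT and 168 ± 66.3 (n = 3) in Kid. It was 75.0 TPM in TpB, 50.4 in Cbr, 40.5 in Spl, 34.9 in MdB and 19.2 in Thy. Neighbours in this order overlapped between mice except Kid with TpB and MdB with Thy. The mean Alas2 level was 351 TPM ± 179 in TpB, 114 ± 54.9 in Spl and 97.7 ± 9.87 in Liv, while eWAT had 11.6, Kid 5.17, MdB 4.60, iBAT 4.30, Cbr 2.27 and Thy 0.382 TPM. Here TpB lay above Spl in every mouse and Liv above eWAT, but Spl overlapped with Liv, Kid with MdB, MdB with iBAT and iBAT with Cbr. TPM within a tissue depends on which other RNAs are abundant, and on CPM (read counts scaled by library and TMM factors over all tissues) Alas1 was highest in Liv and Alas2 in Liv passed that in Spl.

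The enzymes after the first step were all measured in every tissue. On TPM, their highest mean in GC_WT mice was in TpB, with 97.9 TPM for Alad, 45.5 for Uros, 86.5 for Urod, 75.4 for Cpox, 63.2 for Ppox, the enzyme that oxidises protoporphyrinogen, and 125 for Fech, which inserts the iron. Liv followed closely for Alad (92.9 TPM), Cpox (71.7) and Fech (90.1). Cpox and Ppox were lowest in iBAT, at 2.70 and 7.39 TPM, and Alad, Uros, Urod and Fech in Thy, at 8.54, 6.08, 20.4 and 6.92 TPM. On CPM scaled over all tissues, Alad, Urod, Cpox and Fech were highest in Liv and Uros in iBAT, and Ppox stayed highest in TpB.

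**Figure D1:**
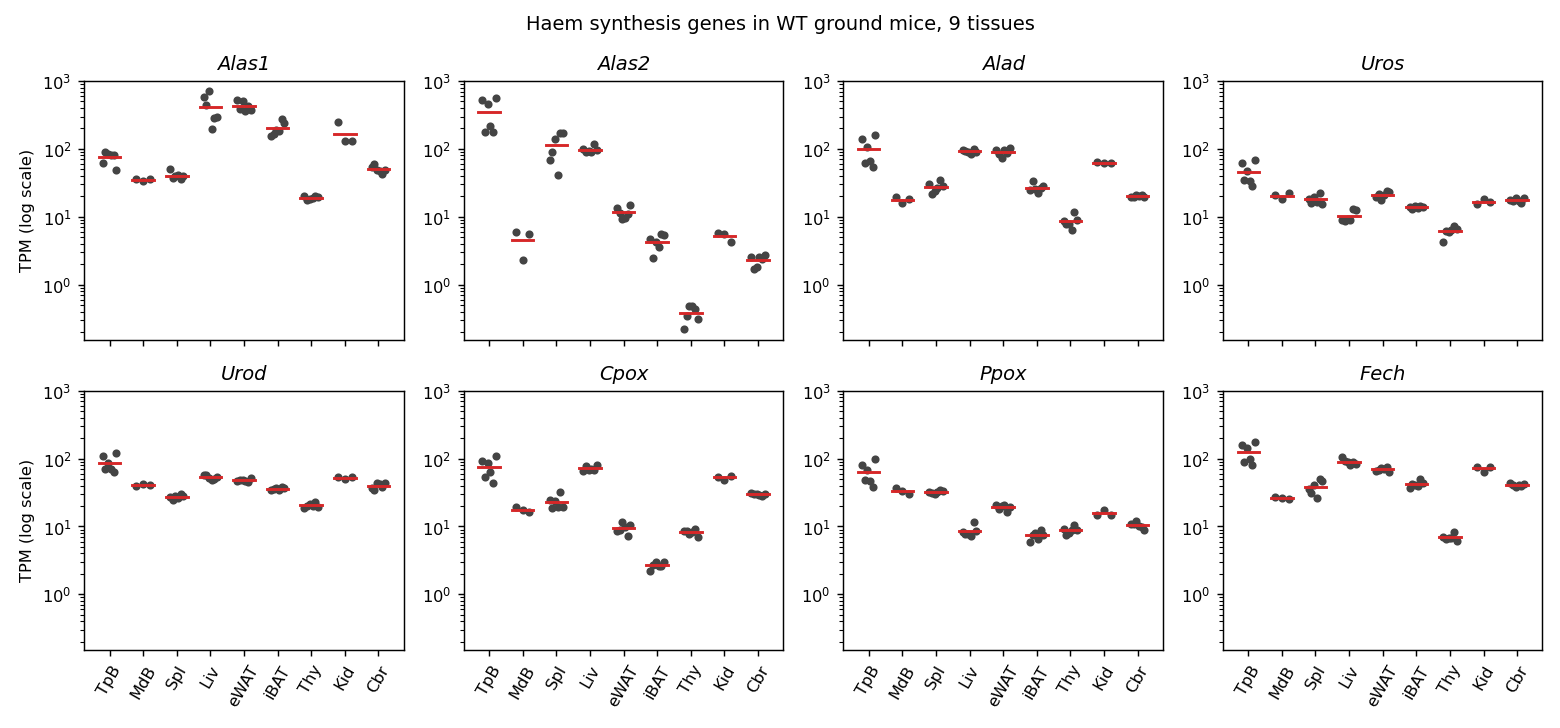
Levels of the 8 haem synthesis genes in 9 tissues of GC_WT mice, in TPM on a log axis, with 1 point for each mouse and a line at the mean. Alas1 is highest in eWAT (mean 432 TPM) and Liv (421), and Alas2 in TpB (351).

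Which synthase was the more abundant mRNA depended on the tissue. Alas2 exceeded Alas1 in 23 of 23 TpB samples, at a median Alas1 to Alas2 ratio of 0.239. In MdB, Liv, eWAT, iBAT, Thy, Kid and Cbr, Alas1 exceeded Alas2 in every sample, with a median ratio of 4.84 in Liv (range 2.19 to 15.4) and 48.9 in iBAT. Spl was on both sides. Alas2 exceeded Alas1 in 6 of 6 GC_WT and 6 of 6 GC_KO spleens, but in 0 of 6 FL_WT and 0 of 5 FL_KO spleens. The median ratio in Spl was 0.345 in GC_WT and 0.226 in GC_KO, against 2.19 in FL_WT and 2.22 in FL_KO. Alas1 itself was not called there, with group means between 39.4 and 43.1 TPM.

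Outside the liver, the tissue medians of Alas2 stood in a similar ratio to the globin Hbb-bs, an adult beta-globin gene that marks red cells and their precursors. Alas2 amounted to a median of 18.7 per 1000 TPM of Hbb-bs in TpB, 19.7 in Spl, 13.3 in eWAT, 12.4 in iBAT, 12.2 in Kid and 11 in Cbr. In Liv the median was 505, and the range of 289 to 1570 over 23 mice lay above the values of every sample of the other tissues, of which the highest was 37.5 in Thy. In Liv, Slc4a1, the anion exchanger of the red cell membrane, was at most 0.25 TPM, and Gata1 at most 0.11 TPM. Klf1, an erythroid transcription factor counted among the Alas2 regulators, was between 1.01 and 3.34 TPM in Liv, a range that overlapped with that in flight spleens (1.04 to 3.23 TPM). The 16 erythroid markers other than globins summed to between 14.2 and 21.7 TPM in Liv, and 1 of them reached a mean of 1 TPM. In GC_WT Spl, at a similar Alas2 level, Slc4a1 was at 25.2 TPM. Apex2, which overlaps Alas2, was at 7.21 TPM ± 1.51 (SD, n = 23) in Liv and 10.3 ± 1.44 in Spl.

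**Figure D2:**
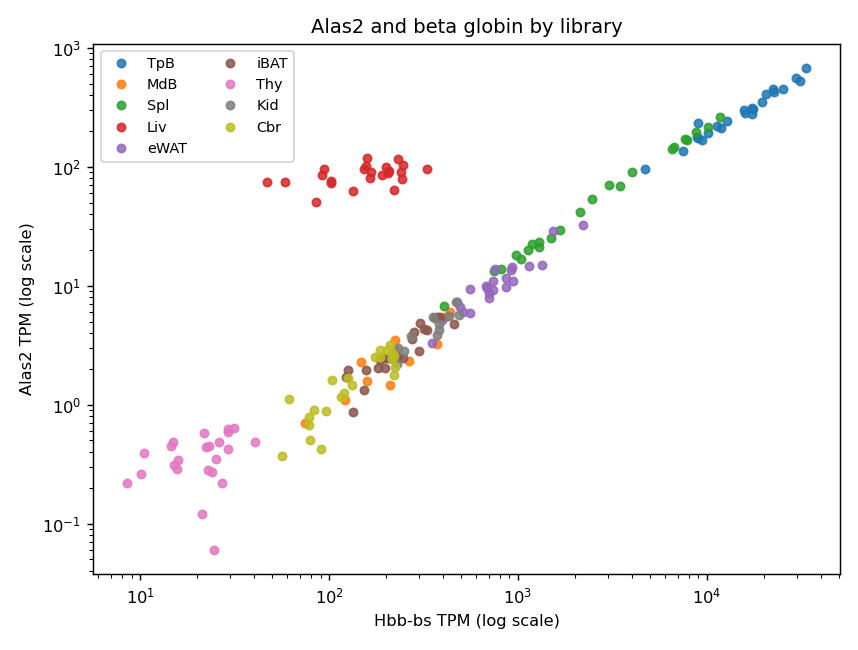
Alas2 against Hbb-bs in TPM (both axes log), 1 point for each sample, coloured by tissue. Most tissues lie along 1 band, with Alas2 at 9.88 to 19.9 per 1000 TPM of Hbb-bs (tissue medians), and the liver samples lie above it at a median of 505.

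The genes whose levels went most closely with Alas1 over the 9 GC_WT tissue means of log2(TPM + 1) were Hsd17b4 (Pearson r = 0.987), Por (0.979), Ephx2 (0.974), Gstk1 (0.974) and Acad11 (0.973). Por is the reductase that supplies electrons to cytochrome P450 enzymes, and Hsd17b4 acts in peroxisomal beta-oxidation. For Alas2 they were Car1, a red cell carbonic anhydrase, at 0.95, Ube2l6 at 0.948, Blvrb at 0.911, Nxpe2 at 0.909 and Gbp10 at 0.893. These are descriptions over 9 points that share library type and depth, other than Thy.

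To ask how flight and the loss of Nrf2 were associated with the pathway, each member was tested in each tissue in 1 fit of all 4 groups, on TMM-scaled counts. Of 72 pairs of a member and a tissue, 71 were tested, and Alas2 in Thy was too low. In WT mice 12 pairs passed an adjusted p of 0.05 between flight and ground, 10 of them lower and 2 higher in flight, in 5 tissues (edgeR's quasi-likelihood test, Benjamini-Hochberg adjustment over all genes of a tissue). Over all genes and tissues, 3.32% of tests were called lower and 3.23% higher. In Nrf2-KO mice 12 pairs passed as well, 11 lower and 1 higher, against 4.48% and 4.43% of all tests. Ppox was called in neither genotype.

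The balance of directions depended on the scale. On log2(TPM + 1), limma called 9 pairs higher and 4 lower in WT mice and 8 higher and 7 lower in Nrf2-KO mice, of those with enough TPM to be tested. The higher calls lay mostly in iBAT and Thy, where the median of all genes on this scale moved up in flight by 0.31 and 0.18 in WT mice and by 0.43 and 0.16 in Nrf2-KO mice. Ppox was among the members called higher, at 0.42 and 0.36 in iBAT and 0.32 and 0.33 in Thy. Of all 8006 genes limma tested in iBAT, 4471 were called higher and 287 lower in WT mice, and 5227 and 429 in Nrf2-KO mice. In Thy, 3943 of 10158 were higher and 234 lower in WT mice, and 3411 and 295 in Nrf2-KO mice. With DESeq2 on counts, 2 member pairs were higher and 12 lower in WT mice and 1 higher and 14 lower in Nrf2-KO mice.

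**Figure D3:**
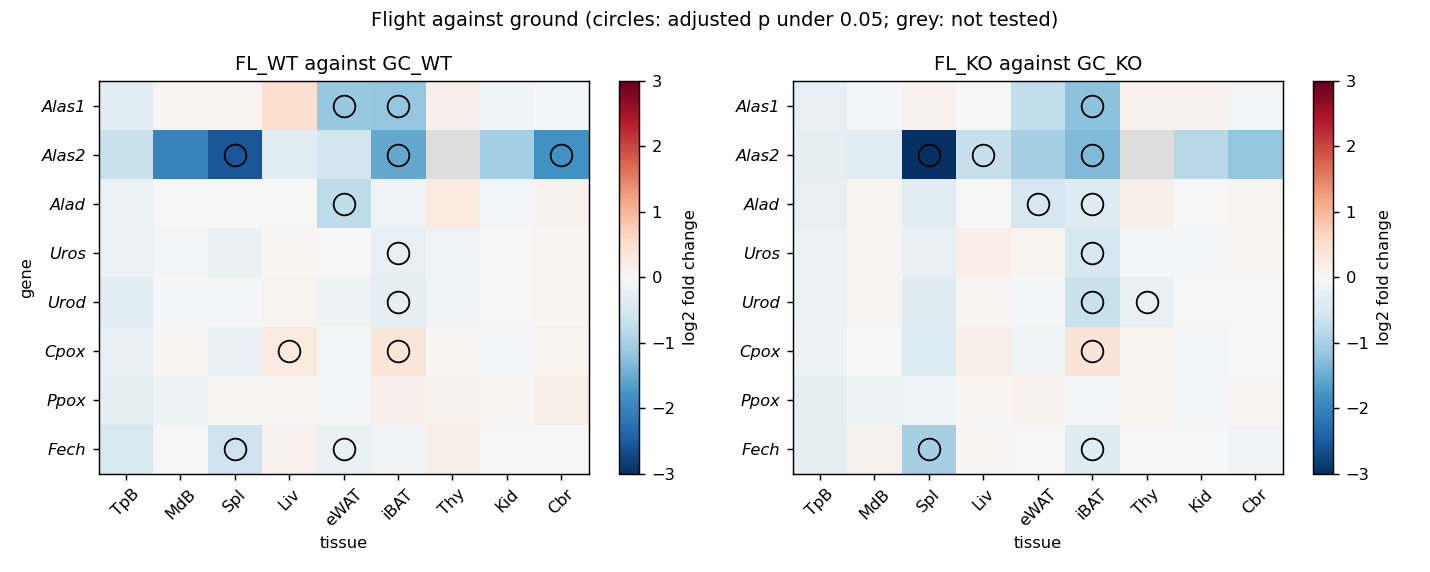
Log2 fold change between flight and ground of each member (rows) in each tissue (columns), for WT and Nrf2-KO mice, on TMM-scaled counts. Circles mark an adjusted p under 0.05 and grey a pair not tested. The circles are 12 pairs in WT mice (10 lower) and 12 in Nrf2-KO mice (11 lower).

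In spleen, Alas2, the erythroid synthase, and Fech fell in flight in both genotypes. Alas2 was at 41.7 TPM in the lowest, 115 in the median and 173 in the highest GC_WT spleen, and at 6.70, 20.4 and 29.3 in FL_WT. It was at 53.5, 172 and 264 TPM in GC_KO, and the 5 FL_KO spleens had 23.3, 13.7, 18.2, 22.5 and 16.6 TPM. All flight spleens lay below all ground spleens of their genotype. The log2 fold change was -2.57 ± 0.40 (SE) in WT (5.92-fold lower, adjusted p = 0.00218) and -3.01 ± 0.43 in Nrf2-KO mice (8.03-fold lower, adjusted p = 0.00213). In this tissue 1.11% of all genes were called lower in WT and 0.513% in Nrf2-KO mice.

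Fech, which lies at chr18:64452914-64490251 on the minus strand, went from 26.3, 38.6 and 50.9 TPM (lowest, median, highest) in GC_WT to 23.8, 25.1 and 26.6 in FL_WT, and from 30.5, 54.0 and 71.4 in GC_KO to 24.8, 23.7, 26.5, 25.1 and 22.1 in the 5 FL_KO spleens. The WT ranges just overlapped and the Nrf2-KO ranges did not. This was a log2 fold change of -0.63 ± 0.17 in WT (adjusted p = 0.0456) and -0.99 ± 0.18 in Nrf2-KO mice (adjusted p = 0.00668). The WT call was lost under 2 alternative settings and without any 1 of 3 FL_KO mice, with adjusted p up to 0.104. Alas1, Alad, Uros, Urod, Cpox and Ppox were not called in Spl, and Urod in Nrf2-KO spleens, with means of 34.4 and 25.8 TPM, was called by DESeq2 (-0.36, adjusted p = 0.0192).

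Erythroid markers moved with Alas2 in Spl. Of 20 tested from a list of 21, 14 fell in WT and 17 in Nrf2-KO mice and 0 rose, with a median log2 fold change of -2.32 and -2.89 against 0.00 and 0.01 over all genes. Slc4a1 went from a mean of 25.2 to 0.953 TPM in WT (-4.73 ± 0.74, adjusted p = 0.0024). On the log2 scale, Hbb-bs fell by 2.24 and Hba-a1, an alpha-globin gene, by 2.20 in WT mice, and by 2.69 and 2.84 in Nrf2-KO mice. The summed level of the list had a median of 16500 TPM in GC_WT, 3793 in FL_WT, 23930 in GC_KO and 3251 in FL_KO. Nearly all of this was the 4 globins, with medians of 16430, 3773, 23730 and 3234 TPM in the same order. The 16 other markers summed to medians of 72.1, 22.0, 157 and 23.2 TPM. Fewer erythroid cells and less of these RNAs per cell cannot be told apart in RNA from a whole tissue.

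The factors that drive Alas2 were less clear. Klf1, an erythroid zinc finger factor, fell in Nrf2-KO spleens (-2.64 ± 0.47, adjusted p = 0.00668) and was at -1.36 in WT (adjusted p = 0.105), while Gata1 was at -0.54 (adjusted p = 0.29) and -1.05 (adjusted p = 0.0601). Klf1 was the single call among 12 Alas2 regulators in Spl. Red pulp macrophage markers summed to medians of 1947, 2100, 1869 and 2099 TPM in GC_WT, FL_WT, GC_KO and FL_KO. Within groups, the genes whose deviations followed those of Alas2 over 23 spleens were Hbb-bs (r = 0.995), Hba-a2 (0.989), Hba-a1 (0.985) and Hbb-bt (0.982), all globins. Of the other members, Fech followed Alas2 most closely (r = 0.82), then Urod (0.64), while Alas1 was at -0.42.

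**Figure D4:**
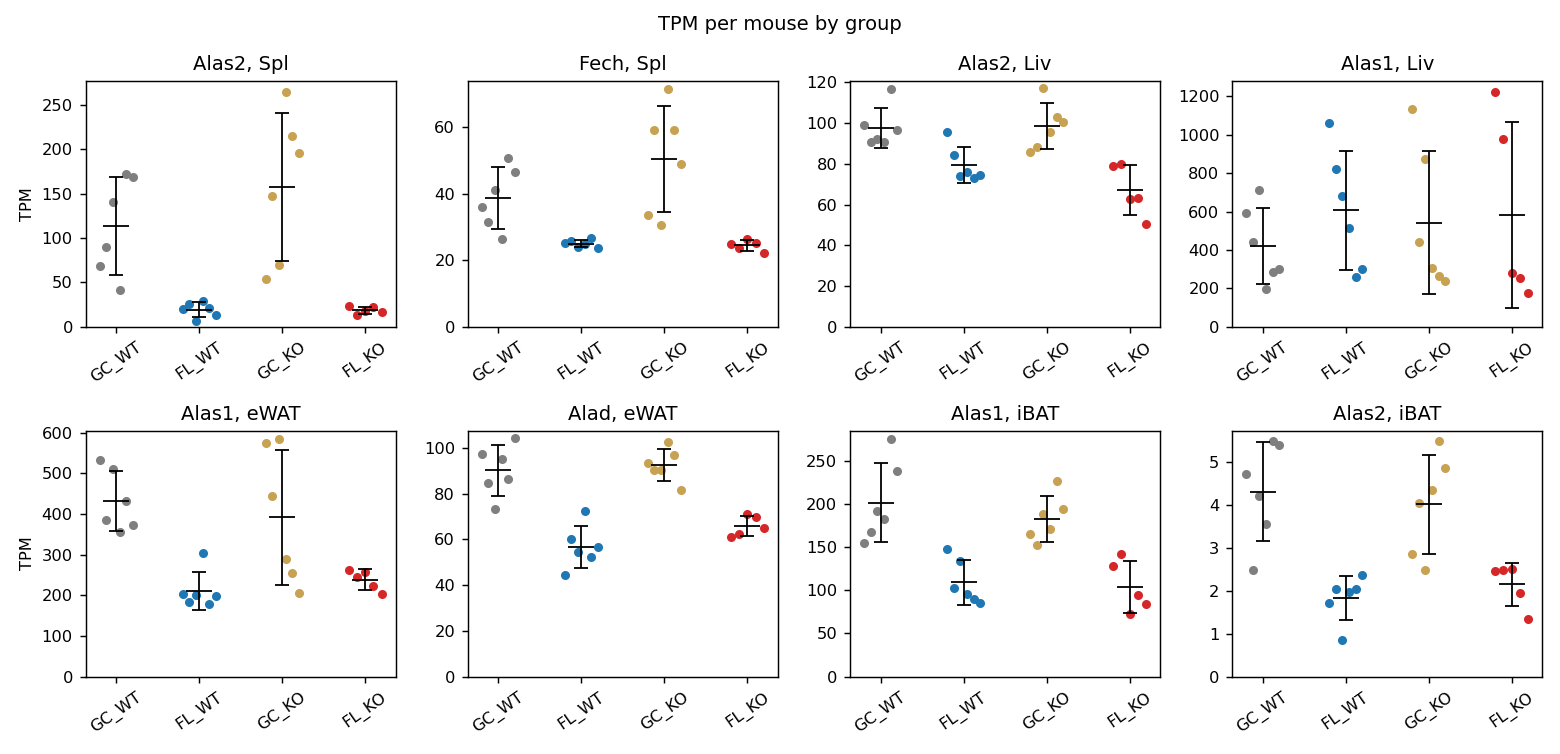
TPM of members in single mice of the 4 groups (points), with the mean and SD, for pairs of member and tissue that the text describes. In Spl, Alas2 lies between 6.70 and 29.3 TPM in all flight mice and between 41.7 and 264 TPM in all ground mice.

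In liver, Alas2 fell in Nrf2-KO mice and Cpox, coproporphyrinogen oxidase, rose in WT mice. Alas2 was at 85.8, 98.2 and 117 TPM (lowest, median, highest) in GC_KO and at 79.2, 79.9, 62.8, 63.5 and 50.7 TPM in the 5 FL_KO livers. All FL_KO values lay below all GC_KO values, with a log2 fold change of -0.69 ± 0.13 (1.61-fold lower, adjusted p = 0.00316), where 2.02% of all genes were called lower. In WT livers the median went from 94.4 to 75.5 TPM and the ranges of 90.5 to 117 and 73.0 to 95.5 overlapped (-0.35 ± 0.12, adjusted p = 0.116). The difference between genotypes was -0.34 ± 0.17 (adjusted p = 1.0, edgeR interaction test). The globins had the larger values in the other genotype. Hbb-bs fell by 1.32 in WT livers (adjusted p = 0.00753) and was at -0.48 in Nrf2-KO livers (adjusted p = 0.408), so Alas2 per 1000 TPM of Hbb-bs was highest in FL_WT, at a median of 967 against 499 in GC_WT, 442 in GC_KO and 470 in FL_KO.

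Cpox was at 65.9, 68.9 and 81.4 TPM (lowest, median, highest) in GC_WT livers and at 83.5, 91.8 and 107 in FL_WT, with no overlap. This was a log2 fold change of 0.30 ± 0.083 (1.23-fold higher, adjusted p = 0.0465), against 1.53% of genes called higher. The call was lost under 4 alternative settings (adjusted p up to 0.0909) and without the FL_KO mouse FL09. Cpox was also the 1 member called between genotypes on the ground: GC_KO livers had 79.3, 93.2 and 103 TPM, which overlapped little with GC_WT (0.36 ± 0.083, adjusted p = 0.0141). In flight, FL_KO livers had 103, 117, 120, 129 and 113 TPM, all above GC_KO, with a log2 fold change of 0.18 ± 0.087 on TMM-scaled counts that was not called (adjusted p = 0.329). On TPM it was 0.33 with limma (adjusted p = 0.00987), where the median of all genes moved by 0.15.

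Alas1 varied from 176 to 1223 TPM between livers and was not called. It was at 198, 370 and 710 TPM (lowest, median, highest) in GC_WT, 259, 599 and 1060 in FL_WT and 237, 372 and 1134 in GC_KO, and the 5 FL_KO livers had 1223, 975, 283, 253 and 176 TPM. All groups overlapped. The log2 fold change in flight was 0.47 ± 0.52 in WT (adjusted p = 0.735) and 0.00 ± 0.55 in Nrf2-KO mice (adjusted p = 0.999), and 0.33 ± 0.52 for the knockout on the ground (adjusted p = 0.866), so changes of this size were not detectable.

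Flight and ground mice carry the same set of numbers, although they are different animals, and Alas1 in Liv went with the number. Over the 11 numbers present in both, the log2 deviations from the group means had r = 0.8. Number 01 had 1223 TPM in flight and 1134 on the ground, and number 12 had 176 and 237. Numbers 07 to 12 were at 514 TPM or less in either condition, and numbers 01 to 06 at 440 or more. Alas1 in fat also split by number in some groups. In eWAT of GC_KO mice, numbers 01, 02 and 04 had 445 to 584 TPM and 09, 11 and 12 had 204 to 289. In the other eWAT groups these ranges overlapped. In flight iBAT, numbers 01 to 06 were at 102 TPM or more and 07 to 12 at 96.3 or less. In ground iBAT they overlapped, at 152 to 193 and 171 to 275 TPM. What a number stands for beyond the animal's name was not given in the sources used here, and its part in the spread was not tested.

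**Figure D5:**
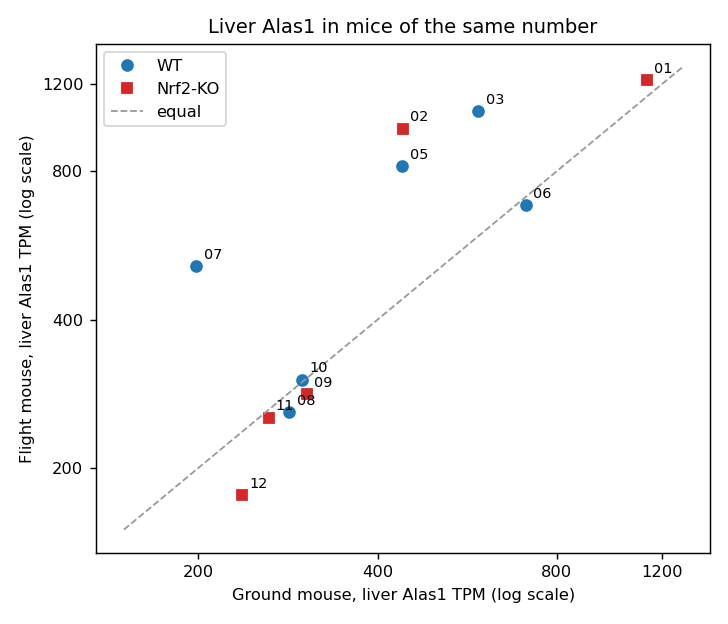
Liver Alas1 in TPM (log axes) of the flight mouse against that of the ground mouse with the same number, 11 numbers, by genotype, with a dashed line where both are equal. High and low numbers go together, from 1223 and 1134 TPM for number 01 to 176 and 237 for number 12 (flight and ground).

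Over 23 livers, the deviations of Alas1 were followed most closely by Dcun1d3 (r = 0.94), Ciart (0.939), Hnf4a (0.923), Efhd2 (0.918) and Pfkfb3 (0.91). Ciart is a repressor tied to the circadian clock, Hnf4a a hepatocyte nuclear receptor and Pfkfb3 a regulator of glycolysis. Of the members, Fech went with Alas1 (r = 0.67) and Uros against it (-0.60). Of 12 regulators of Alas1, 1 rose in Nrf2-KO livers in flight, Nr1i3 (the receptor CAR, 0.79 ± 0.20, adjusted p = 0.0265). Nr1i3 was also lower in Nrf2-KO than in WT livers, by -1.96 ± 0.19 on the ground (adjusted p = 2.79e-07) and -1.48 ± 0.20 in flight (adjusted p = 4.87e-05), without a call for Alas1.

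In epididymal white adipose tissue, the first enzymes of the pathway fell. Alas1 was at 357, 408 and 533 TPM (lowest, median, highest) in GC_WT and at 178, 200 and 304 in FL_WT, so that no values overlapped. The log2 fold change was -1.14 ± 0.23 (2.21-fold lower, adjusted p = 0.0017), against 6.78% of genes called lower. In Nrf2-KO mice, GC_KO ranged from 204 to 584 TPM with a median of 367, and the 5 FL_KO samples had 263, 244, 258, 224 and 203 TPM. These ranges overlapped, since GC09, GC11 and GC12 were low, and the log2 fold change of -0.74 was not called by edgeR (adjusted p = 0.059) and was by DESeq2 (-0.73, adjusted p = 0.0261). The difference between genotypes was 0.41 ± 0.32 (adjusted p = 0.742).

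Alad, which makes porphobilinogen, fell in eWAT of both genotypes. It went from 73.3, 90.8 and 105 TPM in GC_WT to 44.6, 55.5 and 72.5 in FL_WT, and from 81.8, 91.9 and 103 in GC_KO to 61.0, 62.3, 71.0, 69.6 and 65.2 in FL_KO. No values overlapped in either genotype. Its log2 fold change was -0.76 ± 0.10 in WT (adjusted p = 6.98e-05) and -0.50 ± 0.11 in Nrf2-KO mice (adjusted p = 0.00747), against 3.98% of genes called lower in the latter. Fech had a small fall in WT (-0.20 ± 0.065, adjusted p = 0.0405) that was lost under 3 settings and without any 1 of 3 FL_KO mice (adjusted p up to 0.296).

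Of 10 Alas1 regulators tested in eWAT, 5 fell in WT mice and 0 rose, with a median of -0.24 against 0.00 over all genes. Among them were Rxra (-0.18), Foxo1 (-0.52), Esrra (-0.38) and Ppargc1b (-0.82), a coactivator of mitochondrial genes. In Nrf2-KO mice 1 of 10 fell, Rxra (-0.18 ± 0.045). Of 32 other genes of haem and iron handling, 4 fell and 2 rose in WT, and 1 fell and 4 rose in Nrf2-KO mice. Steap3, an iron reductase of endosomes, fell in both (-0.83 and -0.68), Tfrc, the transferrin receptor, fell in WT (-0.81 ± 0.25, adjusted p = 0.0358), and Slc48a1, a haem transporter, rose in both (0.37 and 0.30). Of 6 hepatocyte markers, 1 fell in eWAT in both genotypes, Cyp2e1, a cytochrome P450 that fat also expresses, from a mean of 7330 to 1970 TPM in WT and from 5100 to 2180 TPM in Nrf2-KO mice. It made up most of the list's summed level, whose median was 7412 TPM in GC_WT (5138 to 10560), 2007 in FL_WT (1299 to 3678), 5327 in GC_KO and 2045 in FL_KO. Albumin (Alb) was at 73.5 and 91.8 TPM in GC_WT and FL_WT (adjusted p = 0.865) and at 186 and 35.5 TPM in GC_KO and FL_KO (adjusted p = 0.216). Summed skeletal muscle markers had medians of 290 TPM in GC_WT, 71.0 in FL_WT, 91.7 in GC_KO and 119 in FL_KO. The part of other cell types in the Alas1 and Alad values was not tested. Hbb-bs was at -0.27 (adjusted p = 0.661) and -0.58 (adjusted p = 0.347), and Alas2 at -0.55 (adjusted p = 0.34) and -0.99 (adjusted p = 0.103).

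Brown adipose tissue held the most calls, with 4 members lower and 1 higher in WT, and 6 lower and 1 higher in Nrf2-KO mice. Many other genes were called as well, namely 10.3% lower and 8.83% higher in WT, and 16.6% lower and 17.0% higher in Nrf2-KO mice. Alas1 went from 155, 188 and 275 TPM (lowest, median, highest) in GC_WT to 85.1, 99.4 and 148 in FL_WT, and from 152, 180 and 227 in GC_KO to 129, 142, 72.2, 94.2 and 83.7 in the 5 FL_KO mice. Flight and ground did not overlap, and lay closer together among mice numbered 01 to 06, as given above. Alas1 fell by 1.17 ± 0.19 on the log2 scale in WT (2.25-fold lower, adjusted p = 0.000146) and by 1.22 ± 0.20 in Nrf2-KO mice (2.33-fold lower, adjusted p = 6.87e-05).

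Alas2 was low in iBAT, at a median of 4.46 TPM in GC_WT, 2.0 in FL_WT and 4.20 in GC_KO, and at 2.45, 2.48, 2.50, 1.95 and 1.34 TPM in FL_KO. FL_WT lay below all GC_WT mice, and FL_KO just overlapped with the lowest GC_KO mouse (2.48 TPM). Alas2 fell by 1.54 ± 0.23 in WT (adjusted p = 8.93e-05) and by 1.32 ± 0.25 in Nrf2-KO mice (adjusted p = 0.000293). The 4 globins tested fell beside it in both genotypes, Hbb-bs by 1.43 and 1.06, and Slc4a1 was at most 0.16 TPM. Sptb, a spectrin on the erythroid list that muscle also makes, rose (4.37 in WT and 5.18 in Nrf2-KO mice), and the 3 libraries with muscle RNA are all flight libraries. The part of red cell RNA in the Alas2 values was not tested.

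The later enzymes in iBAT depended on the scale. On TMM-scaled counts, Urod, which removes carboxyl groups from the ring, was at -0.27 ± 0.076 in WT (adjusted p = 0.0147) and -0.67 ± 0.081 in Nrf2-KO mice (adjusted p = 2.13e-06). Uros was at -0.25 (adjusted p = 0.0454) and -0.53 (adjusted p = 0.000134). The Uros call in WT was lost without the 3 libraries with muscle RNA (-0.28, adjusted p = 0.0594), without a filter (adjusted p = 0.0894) and with only the groups compared (adjusted p = 0.0561). In Nrf2-KO mice Alad was at -0.39 (adjusted p = 0.0035) and Fech at -0.36 (adjusted p = 0.000174). On TPM, where the median of all genes moved up as given above, Urod and Uros in WT and Alad and Fech in Nrf2-KO mice had the opposite sign (0.03 to 0.08, not called), while Uros in Nrf2-KO mice was at -0.08 (adjusted p = 0.459). These values thus describe a position relative to other genes. Urod in Nrf2-KO mice was also lower in TPM, at a mean of 36.9 in GC_KO and 29.4, 26.0, 34.6, 36.3 and 31.7 in FL_KO, with some overlap.

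Cpox went the other way in iBAT. It was at 2.22, 2.67 and 3.02 TPM in GC_WT and 3.27, 4.34 and 5.33 in FL_WT, and at 2.42, 2.62 and 3.08 in GC_KO and 4.37, 3.86, 4.02, 5.83 and 5.67 in FL_KO, without overlap. The log2 fold change on TMM-scaled counts was 0.36 ± 0.11 (adjusted p = 0.0257) and 0.38 ± 0.12 (adjusted p = 0.0151). Without the 3 libraries with muscle RNA, the WT call was lost (0.26, adjusted p = 0.139), and it was lost under 2 other settings (adjusted p up to 0.0686), the Nrf2-KO call with FL04 included (adjusted p = 0.0501). Over the 9 tissues, leaving out those 3 libraries gave 10 member calls in WT and 12 in Nrf2-KO mice.

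Other genes of haem and iron handling in iBAT were called lower only, 5 of 31 in WT and 15 of 31 in Nrf2-KO mice, with a median of -0.08 and -0.22 against 0.02 and 0.04 over all genes on the same scale. Tmem14c, which carries protoporphyrinogen into mitochondria in red cell precursors, was at -0.53 and -0.78, Iscu, the scaffold of iron-sulphur clusters, at -0.27 and -0.45, and Fdx1, a ferredoxin, at -0.29 and -0.58. Mean TPM of Iscu was 140 on the ground and 145 in flight in WT mice, so that call too is relative to other genes. Of 9 Alas1 regulators tested, Ncoa1 rose in WT (0.45 ± 0.13), and Rxra (0.29) and Ppargc1a, the coactivator induced by cold in brown fat (1.41 ± 0.50, adjusted p = 0.0343), rose in Nrf2-KO mice, while Alas1 fell. Of 8 Alas2 regulators tested in Nrf2-KO mice, Aco1 fell (-0.25) and Lmo2 rose (0.35).

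In cerebrum, Alas2 was low and fell in WT mice. It was at 1.67, 2.46 and 2.72 TPM (lowest, median, highest) in GC_WT and at 0.37, 0.64 and 0.91 in FL_WT, without overlap (-1.82 ± 0.24, 3.53-fold lower, adjusted p = 0.00123), in a tissue with 0.0244% of genes called lower. In GC_KO it was at 1.61, 2.73 and 3.18 TPM, and in FL_KO at 1.45, 0.67, 1.25, 1.16 and 1.12, again below all ground mice, but the log2 fold change of -1.16 ± 0.23 had an adjusted p of 0.244. The difference between genotypes was 0.66 ± 0.34 (adjusted p = 1.0). Of 8 erythroid markers tested, 3 fell in WT mice, all globins, with Hbb-bs at -1.25 ± 0.20 (adjusted p = 0.0059), and Slc4a1 and Gata1 were at most 0.20 and 0.08 TPM.

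Kidney and mandible bone gave the same sign for Alas2, and whether it was called depended on the setting. In Kid it was at 5.70, 5.53 and 4.28 TPM in GC_WT, 2.85, 2.20 and 3.02 in FL_WT, 5.42, 4.75 and 7.25 in GC_KO and 3.88, 2.53 and 3.81 in FL_KO. Flight mice lay below ground mice, and the log2 fold changes of -1.02 ± 0.21 and -0.84 ± 0.20 had adjusted p of 0.14 and 0.136. Without the filter on low counts, edgeR called both (adjusted p = 0.0168 and 0.0364), as did DESeq2 (0.0192 and 0.0441). Hbb-bs was at -0.94 and -0.55 there. In MdB, Alas2 was at 5.99, 2.32 and 5.50 TPM in GC_WT and 1.57, 1.10 and 0.70 in FL_WT (-2.0 ± 0.45, adjusted p = 0.327), and edgeR without the filter (adjusted p = 0.015) and DESeq2 (adjusted p = 0.0124) called this value. In Nrf2-KO mice it was at 2.94, 3.48 and 2.29 TPM in GC_KO and 3.26 and 1.46 in FL_KO, which overlapped (-0.32 ± 0.48, adjusted p = 0.997). The difference between genotypes was 1.68 ± 0.65 (unadjusted p = 0.0238 and adjusted p = 0.932, edgeR interaction test). Summed globins in MdB had medians of 1389 TPM in GC_WT, 446 in FL_WT, 708 in GC_KO and 979 in FL_KO. Of all 16361 genes tested in MdB, edgeR with the filter called 0 for flight in either genotype.

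In temporal bone, the richest erythroid tissue here, 0 of 8 members were called by edgeR or DESeq2 in either genotype, and 0 had an unadjusted p under 0.05. Of all 18184 genes tested there, edgeR called 0 for flight in either genotype. DESeq2 called 6 genes in WT and 5 in Nrf2-KO mice, all lower. Alas2 had medians of 336 TPM in GC_WT, 295 in FL_WT and 352 in GC_KO, and FL_KO had 210, 279, 675, 95.4 and 193 TPM. The groups overlapped widely, with log2 fold changes of -0.67 ± 0.45 (adjusted p = 1.0) and -0.27 ± 0.47 (adjusted p = 0.999). Fech was at -0.49 and -0.28, also not called.

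In thymus, Urod was called lower in Nrf2-KO mice (-0.22 ± 0.075, adjusted p = 0.0213), among 18.9% of genes called lower. The call was lost without FL02 (-0.18, adjusted p = 0.0713) or FL12 (-0.19, adjusted p = 0.0691). The mean TPM of Urod was 18 in GC_KO and 18.4 in FL_KO, and the median of all genes moved up on TPM by 0.16, so this value too is relative to other genes. Alas1 was higher in TPM in every flight mouse than in any ground mouse of its genotype, with means of 19.2 and 25.2 in GC_WT and FL_WT and 16.8 and 22.0 in GC_KO and FL_KO. On TMM-scaled counts it was at 0.15 and 0.14 and not called, and on TPM limma called it (0.36, adjusted p = 0.00569, and 0.38, adjusted p = 0.00507). Limma also called Alad, Cpox, Ppox and Fech higher in Thy in both genotypes, from 0.23 to 0.48 on that scale. It called 3943 of all 10158 genes higher there in WT and 3411 in Nrf2-KO mice. On TMM-scaled counts, edgeR called 1925 of 16307 genes higher and 1796 lower in WT, and 3150 and 3083 in Nrf2-KO mice. Of 9 Alas1 regulators, Rxra rose in both genotypes (0.31 and 0.45) and Nrf1 fell in both (-0.30 and -0.34). Of 9 Alas2 regulators tested, 1 rose and 1 fell in WT and 3 rose and 3 fell in Nrf2-KO mice, with Bach1, a repressor that senses haem, at -0.29 and -0.38 and Bcl11a at 0.48 and 0.71.

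Loss of Nrf2 was associated with few calls among the members. On the ground, 1 of 71 pairs was called, Cpox in Liv as given above, where 1.65% of all tests were called in either direction and 0.938% of genes in Liv higher. In flight, 3 of 71 were called, against 0.855% of tests lower and 0.500% higher. Uros, uroporphyrinogen III synthase, had a median of 11 TPM in FL_WT livers and 12.1, 14.9, 15.7, 17.6 and 17.1 TPM in FL_KO (0.38 ± 0.11, adjusted p = 0.0457, with 1.36% of genes called higher), with 1 FL_KO value inside the FL_WT range. Uros in iBAT was lower in Nrf2-KO mice, with means of 14.6 and 12.0 TPM (-0.36 ± 0.090, adjusted p = 0.0465, with 1.27% of genes called lower). Fech in Cbr was lower as well, with means of 41.8 and 35.9 TPM (-0.19 ± 0.045, adjusted p = 0.0496, with 0.354% called lower). Each of these 3 calls was lost without at least 1 single FL_KO mouse, with adjusted p up to 0.129, 0.132 and 0.187.

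Differences between genotypes in the flight response were not detected with edgeR, whose interaction test called 0 of 71 pairs and 0% of all 140842 tests. Of the 71 pairs, 7 had an unadjusted p under 0.05, 4 of them in iBAT, limma called 0, and DESeq2 called 1, Urod in iBAT (-0.40, adjusted p = 0.0351). Of the other haem and iron genes in liver, Pgrmc1, a haem-binding membrane protein, was lower in Nrf2-KO mice on the ground (-0.54 ± 0.094, adjusted p = 0.000846) and in flight (-0.59 ± 0.099, adjusted p = 0.000594). Tfrc in liver fell in flight in both genotypes (-0.94 and -1.09), and Tmem14c in Nrf2-KO mice (-0.31 ± 0.066). In spleen Tfrc fell in Nrf2-KO mice (-0.78 ± 0.16), and Isca1, an iron-sulphur cluster protein, in both genotypes (-0.35 and -0.44).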

How the data were processed

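RNA-seq of 9 tissues was analysed in 4 groups of mice, which the sample labels name along with the tissue and the number of each mouse. The authors sequenced strand-specific libraries as single reads, mapped them to mm10 with STAR 2.6.1 and quantified GENCODE vM20 genes with RSEM 1.3.1. The authors deposited expected counts and TPM per gene, both as RSEM gives them. A further 192 columns of FPKM were not used. The strand setting of the counting was not given in the sources used here. The members and gene lists were chosen with earlier results of these data known.

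Rounded counts were fitted for each tissue with edgeR 4.0.16 under R 4.3.3 (filterByExpr by group, TMM factors, quasi-likelihood test, 4 groups together). Benjamini-Hochberg adjustment ran over all genes tested in the tissue, and adjusted p under 0.05 was called. Scripts were tested on simulated data. Levels are TPM, and log2 fold changes are on TMM-scaled counts unless stated. Replicates are single mice. Likeness used Pearson r of log2(TPM + 1) among genes with a mean of at least 5 TPM. As alternatives, DESeq2 1.42.0 and limma 3.58.1, the latter on log2(TPM + 1), were run, and the edgeR fit was repeated with RLE factors, TMM without erythroid genes, no filter, FL04 included, the compared groups alone, a block for the mouse number, a block for the 2 ranges of library numbers in TpB, and each mouse of a group of up to 5 left out. Fits without the iBAT libraries rich in muscle RNA and without GC04 in Thy were added after the data had been seen. Deviations from the group means over the genes tested were correlated between same-numbered flight and ground mice. Only among Nrf2-KO livers was r above 0.1 in every pair (5 of 5, r of 0.22 to 0.37). It was so in 4 of 6 pairs of WT livers (0.02 to 0.34). In Nrf2-KO mice it was so in 4 of 5 pairs in TpB (-0.48 to 0.75) and in iBAT (0.07 to 0.29).

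All 8 members in every tissue are named, with Nfe2l2. From each list (erythroid markers, Alas1 regulators, Alas2 regulators, haem and iron handling, hepatocyte and skeletal muscle markers) the rule names up to 4 genes with the smallest adjusted p in a tissue and any gene called against the others, with Hbb-bs, Hba-a1, Slc4a1, Gata1 and Klf1 always among the erythroid genes. Some genes that this rule names are not reported here. Promoter sequences came from a RefSeq table that is not complete. Fech was left out of the promoter search, which covered the other 7 of the 8 members.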

Additional observations from a re-analysis of the deposited data

Results flagged for a closer look

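Among 224 groups of 4 to 6 mice, 12 held a value set apart from the rest of its group by a wide gap, about as many as chance gives (1 in 20). In TpB, Alas1 was at 94.08 TPM in FL03 (other FL_WT mice 57.7 to 69.8), and in FL09 Urod was at 117.9 and Ppox at 73.31 TPM (other FL_KO mice 60.9 to 73.6 and 41.1 to 50.3), the mouse that also had the highest Alas2 there. In Spl, Alas1 was at 50.17 TPM in GC03 (others 35.8 to 41.1) and at 46.45 in GC04 (35.9 to 39.3). In Liv, GC08 had 116.6 TPM of Alas2 (90.5 to 99.1) and 11.46 of Ppox (7.17 to 8.49). In eWAT, Alas1 was at 303.7 TPM in FL07 (178 to 204) and Cpox at 9.63 in FL12 (8.19 to 8.58). In Thy, Alas2 was at 0.06 TPM in FL11 (0.39 to 0.49) and Fech at 6.45 in FL02 (8.10 to 8.44). In Cbr, Alas1 was at 53.61 TPM in GC04 (46.9 to 49.4).

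Alas1 moved in opposite directions in TPM in different tissues, with every flight mouse on 1 side of every ground mouse. The log2 ratio of mean TPM between flight and ground in WT mice was 0.39 in Thy, -1.03 in eWAT and -0.89 in iBAT, and in Nrf2-KO mice it was 0.39 in Thy and -0.81 in iBAT. The difference between tissues was not tested, and the Thy values were 0.15 and 0.14 on TMM-scaled counts.

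The omitted mouse FL04 had 134.4 TPM of Cpox in Liv, above all 23 other livers (65.9 to 129). Of its 64 values for the members, 5 lay outside the range of all other mice of the tissue.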

How the results depend on the processing

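Of the 28 member calls, 13 were kept in every alternative: Alas2 in Spl and iBAT (both genotypes), Liv (Nrf2-KO) and Cbr (WT), Alas1 in eWAT (WT) and iBAT (both), Alad in eWAT (both), Urod in iBAT (Nrf2-KO) and Cpox in Liv on the ground. The other 15 were lost in at least 1. The balance of directions turned with limma on TPM, to 9 higher and 4 lower in WT and 8 and 7 in Nrf2-KO mice. On that scale far more of all genes were also called higher than lower in iBAT and Thy. Limma on TPM reversed 5: Urod (0.03) and Uros (0.06) in iBAT of WT mice, Fech (0.08) and Alad (0.03) in iBAT of Nrf2-KO mice, and Urod in Thy (0.03). Limma did not test Alas2 and Cpox in iBAT or Alas2 in Cbr, which were under its TPM minimum. Calls for flight ranged from 9 to 14 in WT and from 11 to 15 in Nrf2-KO mice. With single mice left out, they ranged from 11 to 13 in both genotypes, and from 2 to 3 for the knockout in flight. In the tissues with calls only FL_KO mice were left out, since only groups of up to 5 were reduced. Dependence on a single mouse of any other group was thus not tested, which covers flight in WT and the knockout on the ground. The knockout on the ground had 2 calls with DESeq2, the knockout in flight 0 without a filter and 0 with only the groups compared, and the interaction 1 with DESeq2.

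With the replicate block, the mouse number, the calls were 11 in WT, 13 in Nrf2-KO mice and 0 for the interaction. Same-numbered mice are different animals (6 mice at most per genotype), and how far they varied together differed by tissue, as given above. The block lost Cpox in WT liver (adjusted p = 0.0786) and added Alas2 in eWAT of Nrf2-KO mice (-1.05, adjusted p = 0.0193). It changed no other call. On CPM scaled over all tissues, 23 of 72 places in the order of tissues stayed, and all 72 on TPM without erythroid markers. Of the 20 genes most like Alas1 or Alas2, 18 were shared with a pseudocount of 0.1.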
